A study of Mus musculus with 16 samples.

Results

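Trbv12-1 and Trbv12-2 are a pair of closely related mouse V gene segments of the T cell receptor β chain (TCRβ), known by their older names as Vβ5.2 and Vβ5.1. Members were all rearrangements that the immunoSEQ survey assigned to TCRBV12-01 (Trbv12-1) or to TCRBV12-02 (Trbv12-2). They made up 21102 of the 198953 rearrangements in the series, 11976 with Trbv12-1 and 9126 with Trbv12-2. Of these, 14972 were productive (in frame, with no stop codon), 6030 were out of frame and 100 held a stop codon. The productive members carried 40180 of 526888 productive templates, a template being the service's whole-number estimate of a starting molecule. A further 8 rearrangements with 9 templates were left unresolved between the genes and were not counted.

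T cells came from subcutaneous tumors of KPC.Luc, a single mouse pancreatic cancer line that carries luciferase, grown in female C57BL/6 mice, and were enriched magnetically by the pan-T-cell marker CD90.2, so that CD4+ and CD8+ cells were surveyed together. Each of 4 groups had 4 mice with 1 sample per mouse. The agents were ANT008, a peptide antagonist of the receptors for vasoactive intestinal peptide, and an antibody against PD-1. The ANT008 group had ANT008 with isotype IgG, the anti-PD-1 group had the antibody with a scrambled peptide, the combination group had both agents, and the control group had the scrambled peptide with IgG. Peptides were given at 10 µg each day and antibodies at 200 µg every 3 days over 10 days. A sample held 7180 to 72588 productive templates and 2526 to 13939 unique productive rearrangements, and anti-PD-1 replicate 4 and ANT008 replicate 3 were the shallowest in both. Gene expression was not measured in these samples, so no cell markers could be checked. The comparison with control asks whether either agent, alone or together, moved the use of these V genes among tumor T cells.

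The V segment encodes the CDR1 and CDR2 loops of the β chain, which mostly touch the MHC molecule, and the start of CDR3, which mostly touches the peptide. Vβ5 chains are a classical readout of superantigen deletion. In mice that express the MHC class II molecule I-E, T cells with Vβ5 are removed in the thymus by endogenous retroviral superantigens, and C57BL/6 mice, which are of the H-2b haplotype and lack I-E, keep them. A Vβ5 chain is also part of the OT-I receptor, a widely used transgenic receptor against ovalbumin on H-2Kb. In the gene order of the mouse annotation, Trbv12-1 lies between the pseudogene Trbv11 and Trbv13-1, Trbv12-2 lies between Trbv13-1 and Trbv13-2, and the family's remaining copy, Trbv12-3, is a pseudogene that gave 6 rearrangements here, all out of frame.

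The stretch of V segment that the assay read is shown because it decides which of the near-identical genes a rearrangement is given to. The capitals mark the CDR3 part, from the conserved cysteine codon to the end of the untrimmed V segment.
Trbv12-1: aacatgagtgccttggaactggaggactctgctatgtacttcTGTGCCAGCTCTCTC
Trbv12-2: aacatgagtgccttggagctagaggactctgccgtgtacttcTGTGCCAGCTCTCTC
These were the commonest forms, found over the bases before CDR3 in 97.5% of 11365 Trbv12-1 rearrangements and 97.7% of 8705 Trbv12-2 rearrangements that reached that far. Over these 57 bases the genes differed at 4 positions, A18G, G21A, T33C and A34G (the Trbv12-1 base, the position from the 5′ end, then the Trbv12-2 base). The CDR3 parts were identical, and among the 19 encoded residues 1 differed, M12V. Within this stretch the bases that tell the genes apart thus lie before CDR3.

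Unique productive rearrangements count each nucleotide rearrangement once, whatever its number of templates. By this count Trbv12-1 was number 6 of the 33 V genes with productive rearrangements, with a mean share of 6.04% ± 0.89 (SD, n = 16). Trbv12-2 was number 9 with 5.21% ± 0.76. By productive templates they ranked 12 and 14, with 4.25% ± 2.09 and 2.95% ± 1.59. The spread between mice was thus far wider by templates, where a single expanded clone counts with all its copies. If the molecule amplified was RNA, as the extraction kit named in the methods would give, a larger share cannot be told apart as more cells or more transcript per cell.

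By templates, Trbv12-1 took 2.13%, 2.45%, 9.20% and 2.48% in control replicates 1 to 4, a mean of 4.07% ± 3.43 (SD, n = 4). It took 4.42%, 5.60%, 1.72% and 2.71% with ANT008, a mean of 3.61% ± 1.73. It took 3.33%, 7.77%, 4.84% and 4.53% with anti-PD-1, a mean of 5.12% ± 1.89. In the combination group it took 3.79%, 5.88%, 2.62% and 4.55%, a mean of 4.21% ± 1.37. Control replicate 3 stood above every other sample and the 4 groups overlapped, so that no group mean lay outside the SD of its neighbor in the order anti-PD-1, combination, control, ANT008.

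Trbv12-2 took 1.23%, 2.82%, 5.07% and 1.50% of templates in control replicates 1 to 4, a mean of 2.66% ± 1.76. The values were 2.06%, 2.88%, 2.23% and 4.98% with ANT008, a mean of 3.04% ± 1.34. With anti-PD-1 they were 2.68%, 1.68%, 7.25% and 2.49%, a mean of 3.53% ± 2.52. In the combination group they were 3.33%, 2.12%, 1.76% and 3.14%, a mean of 2.59% ± 0.77. Each of the first 3 groups held a single high mouse (control replicate 3, ANT008 replicate 4 and anti-PD-1 replicate 3), while the combination group was the narrowest.

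**Figure D1:**
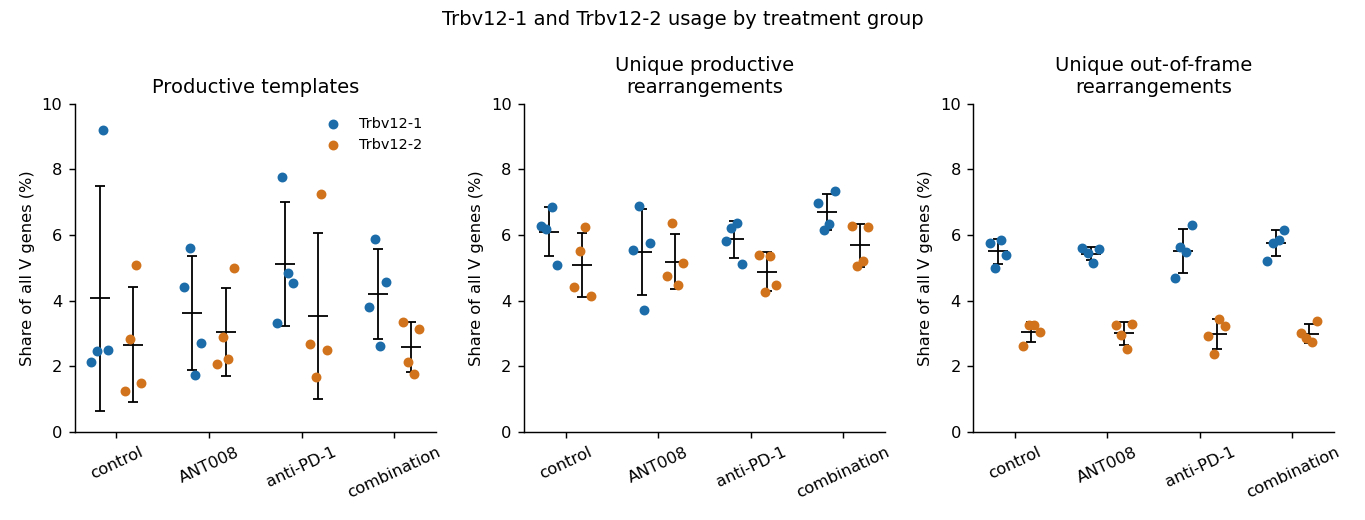
Share of Trbv12-1 and Trbv12-2 among all V genes (y axis, percent) in the 4 treatment groups (x axis), by productive templates, unique productive and unique out-of-frame rearrangements. Points are single mice, and the bar and whiskers are the mean and SD of 4 mice. Template shares scatter widely, from 1.23% to 9.20%, while out-of-frame shares stay near 5.55% and 3.01% in every group.

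The shares by unique rearrangements were tighter. Trbv12-1 averaged 6.10% ± 0.74 in control, 5.47% ± 1.31 with ANT008, 5.87% ± 0.56 with anti-PD-1 and 6.70% ± 0.56 in the combination group. Trbv12-2 averaged 5.08% ± 0.98, 5.19% ± 0.84, 4.88% ± 0.59 and 5.69% ± 0.66 in the same groups. Both genes were highest in the combination group, and the groups overlapped for both genes.

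Neither gene passed the test in any comparison with control (edgeR quasi-likelihood test over 33 V genes, Benjamini-Hochberg). By templates, the log2 fold changes of Trbv12-1 were -0.17 with ANT008 (SE 0.48, adjusted p = 0.95), 0.33 with anti-PD-1 (SE 0.48, adjusted p = 0.73) and 0.050 in the combination group (SE 0.48, adjusted p = 1). Those of Trbv12-2 were 0.19, 0.41 and -0.038, each with an SE of 0.48. By unique rearrangements the changes of both genes lay between -0.13 and 0.14, with SEs from 0.10 to 0.11. The interaction term, which asks whether the agents together did more than the sum of each, was 0.30 for Trbv12-1 by unique rearrangements (SE 0.16, unadjusted p = 0.054, adjusted p = 0.36). It was -0.64 for Trbv12-2 by templates (SE 0.68, adjusted p = 0.76), and moved to -0.013 without anti-PD-1 replicate 3 and to -1.16 without control replicate 3.

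Few V genes passed in these tests at all. By templates, 3.03% of V genes were called with ANT008, 0% with anti-PD-1, 3.03% in the combination and 3.03% for the interaction, and by unique rearrangements 0% in each comparison. Without adjustment, 4 V genes had a p under 0.05 with anti-PD-1 by templates, and DESeq2 likewise called 0 there with 3 under 0.05. By unique rearrangements edgeR gave 2, 2, 1 and 4 V genes under 0.05 in the comparisons above and DESeq2 called 0 in each, with 2, 1, 1 and 3 under 0.05. With an SE of 0.48 on the log2 scale, moderate shifts in template share could not be detected in these samples. The changes by templates turned on single mice. The change of Trbv12-1 with anti-PD-1, 0.33 in all samples, was 1.12 without control replicate 3 (edgeR adjusted p = 0.25) and 0.057 without anti-PD-1 replicate 2. Without control replicate 3, the change of Trbv12-1 with ANT008 went from -0.17 to 0.62 and that of Trbv12-2 in the combination group from -0.038 to 0.48, and without anti-PD-1 replicate 3 the change of Trbv12-2 with anti-PD-1 went from 0.41 to -0.22.

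Single large clones took a large part of the highest template shares, but not all of them. A clone here is 1 nucleotide rearrangement. In control replicate 3, a Trbv12-1 clone with CDR3 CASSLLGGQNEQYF and J2-7 held 1977 templates, 5.19% of all productive templates (95% Wilson interval 4.97% to 5.41%, counting error only), which was 56.4% of the gene's templates and the number 3 clone of that tumor. In anti-PD-1 replicate 2, a Trbv12-1 clone with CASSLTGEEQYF held 1396 templates, 4.42% of the total (4.20% to 4.65%) and 56.8% of the gene's. For Trbv12-2, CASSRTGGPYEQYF held 702 templates in ANT008 replicate 4, 3.38% of the total (3.14% to 3.63%) and 67.8% of the gene's, and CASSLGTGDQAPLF held 2554 in anti-PD-1 replicate 3, 3.52% of the total (3.39% to 3.66%) and 48.5% of the gene's. In control replicate 3, where Trbv12-2 had its second highest share, 5.07%, the largest clone held 32.1% of the gene's templates. Without its largest clone, Trbv12-1 still took 4.01% in control replicate 3, against 1.64% to 1.85% in the other control samples treated alike, and 3.35% in anti-PD-1 replicate 2, within the 3.01% to 3.90% of its group. Trbv12-2 without its largest clone took 3.73% in anti-PD-1 replicate 3 and 3.45% in control replicate 3, each still the highest of its group, and 1.60% in ANT008 replicate 4, the lowest of its group. These rearrangements are shown because they are the largest clones of each gene, with CDR3 in capitals up to the codon before its last residue, which lies beyond the 87 bases read.
Trbv12-1, control replicate 3: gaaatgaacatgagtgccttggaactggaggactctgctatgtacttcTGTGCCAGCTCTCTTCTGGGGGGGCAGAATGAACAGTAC
Trbv12-1, anti-PD-1 replicate 2: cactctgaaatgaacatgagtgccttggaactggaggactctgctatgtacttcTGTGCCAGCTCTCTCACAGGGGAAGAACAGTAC
Trbv12-2, ANT008 replicate 4: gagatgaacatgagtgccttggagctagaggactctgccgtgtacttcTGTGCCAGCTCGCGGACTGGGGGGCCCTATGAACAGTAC
Trbv12-2, anti-PD-1 replicate 3: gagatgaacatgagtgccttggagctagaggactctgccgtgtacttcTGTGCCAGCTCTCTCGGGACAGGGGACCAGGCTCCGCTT

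**Figure D2:**
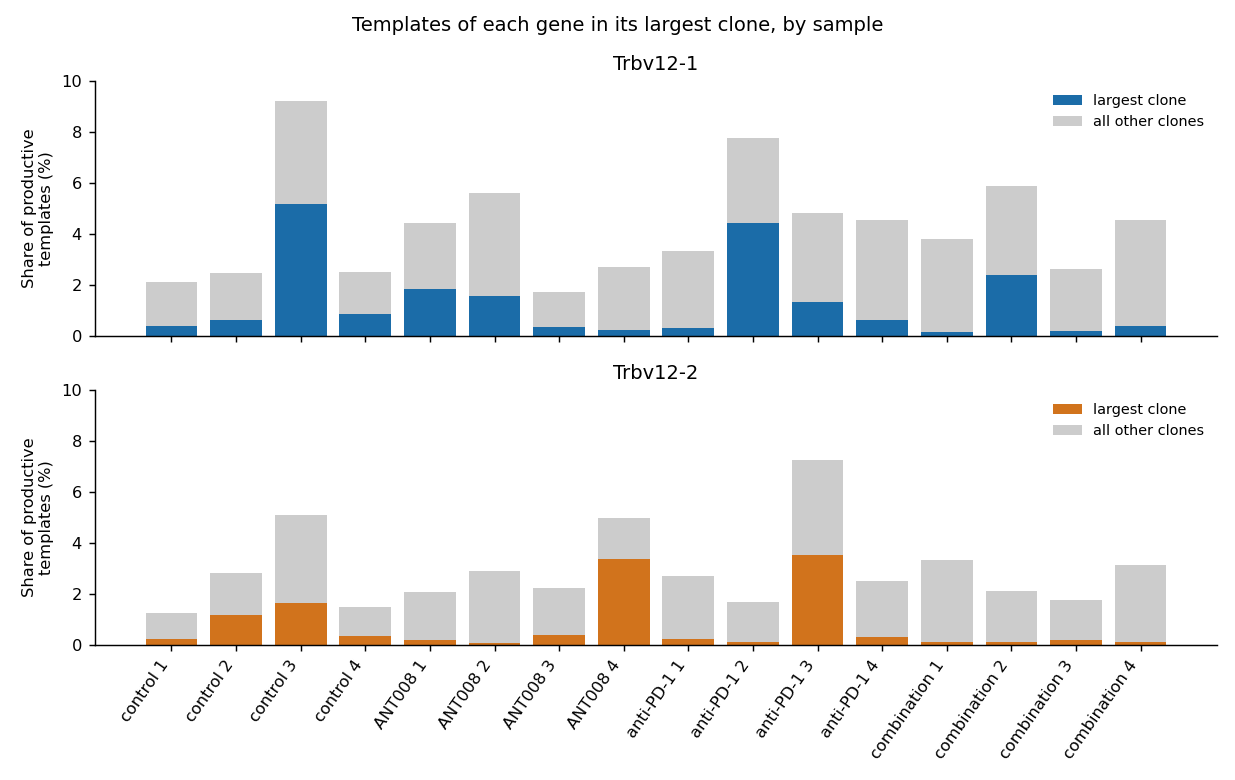
Share of productive templates (y axis, percent) of Trbv12-1 (upper) and Trbv12-2 (lower) in each of the 16 samples (x axis). The colored part of a bar is the largest clone of the gene in that sample and the gray part is all its other clones. The tallest bars, 9.20% and 7.77% for Trbv12-1 and 7.25% for Trbv12-2, hold the largest colored parts.

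Across samples the largest clone took from 3.48% to 56.8% of Trbv12-1 templates, with a median of 22.4%, and from 2.69% to 67.8% of Trbv12-2 templates, with a median of 11.3%. Ordered by that median from the lowest, Trbv12-2 was number 4 and Trbv12-1 number 14 of the 20 V genes with a mean unique share of at least 1%. Most members were small: on average 80.0% ± 7.3 of Trbv12-1 and 80.3% ± 4.3 of Trbv12-2 rearrangements were seen as 1 template (SD, n = 16). These values were not compared with those of other V genes.

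The share of the largest Trbv12-2 clone was compared between the combination group and control, and the difference did not pass after adjustment. The clone took 17.5%, 41.3%, 32.1% and 22.2% of the gene's templates in control replicates 1 to 4, and 2.69%, 4.99%, 9.60% and 3.44% in combination replicates 1 to 4. The groups did not overlap, and the means were 28.3% ± 10.6 and 5.18% ± 3.10 (SD, n = 4 each). The difference of -23.1 points (SE 5.5) gave p = 0.0286, the smallest that the exact permutation test of 4 against 4 samples allows, and adjusted p = 0.34 over 12 such comparisons. Among the 20 V genes, 5% had every combination sample below every control sample, which was Trbv12-2, but the mean was lower in the combination group for 15 of 20, and by more than for Trbv12-2 for Trbv13-2 (32.8% to 5.84%) and Trbv14 (49.8% to 23.1%). The largest Trbv12-1 clone averaged 33.4% ± 16.6 in control and 14.6% ± 17.4 in the combination group (exact permutation p = 0.2, adjusted p = 0.75). Combination replicates 1, 3 and 4 held more unique rearrangements than any control sample, and combination replicate 2 held fewer than control replicates 2 and 3. Whether the share of a largest clone moves with the number of clones was not tested.

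Both genes held a smaller share of templates than of rearrangements, which means smaller clones on average than other V genes. The log2 of template share over unique share averaged -0.64 ± 0.59 (SD) for Trbv12-1 and was below 0 in 14 of 16 samples, the exceptions being control replicate 3 and anti-PD-1 replicate 2. For Trbv12-2 it averaged -0.97 ± 0.58 and was below 0 in 15 of 16, the exception being anti-PD-1 replicate 3. Both means differed from 0 (exact sign-flip permutation over 16 samples, adjusted p = 0.0031 and 0.00071), although single samples reached above 0. The same held for 40% of the 20 V genes, among which Trbv12-2 had the third lowest and Trbv12-1 the fifth lowest mean.

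The CDR3 of the largest Trbv12-2 clone recurred across mice with a change at a single residue. With the residue at position 9 left free, 3 CDR3s were found with Trbv12-2, all joined to J1-5: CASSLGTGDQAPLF, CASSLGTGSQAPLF and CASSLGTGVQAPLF. This family was singled out after its values were seen. It held 3019 templates in anti-PD-1 replicate 3, 621 in control replicate 3, 124 in control replicate 4, 59 in control replicate 1 and 1 each in ANT008 replicates 3 and 4, and was at 0 in the other 10 samples, which allows a share of at most 0.0418% in the shallowest of them. Together these 3825 templates were 22.1% of all Trbv12-2 templates in the series, and 37 templates of the same CDR3s had another V gene. No combination sample held it, and its presence was not tested between groups. The forms are shown because the same letters were found in different mice.
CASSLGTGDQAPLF, 2554 templates in anti-PD-1 replicate 3, 124 in control replicate 4, 22 in control replicate 1 and 1 in ANT008 replicate 4: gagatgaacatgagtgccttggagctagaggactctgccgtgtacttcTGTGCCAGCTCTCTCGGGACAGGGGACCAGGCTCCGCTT
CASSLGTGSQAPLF, 620 templates in control replicate 3: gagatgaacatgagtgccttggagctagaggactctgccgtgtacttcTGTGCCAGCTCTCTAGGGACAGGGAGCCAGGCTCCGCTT
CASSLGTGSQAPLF, 464 templates in anti-PD-1 replicate 3: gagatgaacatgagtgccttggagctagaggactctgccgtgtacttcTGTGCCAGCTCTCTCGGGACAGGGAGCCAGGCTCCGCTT
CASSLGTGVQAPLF, 37 templates in control replicate 1: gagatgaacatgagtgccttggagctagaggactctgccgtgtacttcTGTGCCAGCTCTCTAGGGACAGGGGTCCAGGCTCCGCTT
The aspartate form shown was annotated with 0 added nucleotides and was the same over its whole length in 4 mice of 3 groups, while the serine and valine forms had 2 or 3.

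A pair of leading Trbv12-1 clones in different groups also differed at a single residue. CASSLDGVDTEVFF led in ANT008 replicate 1 with 420 templates, 1.85% of the total (1.68% to 2.04%), and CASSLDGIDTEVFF led in anti-PD-1 replicate 1 with 102 templates, 0.317% (0.261% to 0.384%), both with J1-1.
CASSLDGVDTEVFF: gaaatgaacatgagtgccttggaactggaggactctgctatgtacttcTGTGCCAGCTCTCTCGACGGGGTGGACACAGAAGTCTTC
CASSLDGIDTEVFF: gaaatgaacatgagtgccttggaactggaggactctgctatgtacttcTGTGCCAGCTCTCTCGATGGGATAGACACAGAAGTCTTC
The remaining leading clones of Trbv12-1 held 40 to 947 templates, among them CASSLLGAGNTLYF with 947 in anti-PD-1 replicate 3 and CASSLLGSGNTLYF with 100 in combination replicate 3, a further pair that differs at a single residue. Those of Trbv12-2 held 23 to 481, the latter being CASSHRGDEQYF in control replicate 2. The Trbv12-1 pairs were singled out after the sequences were seen, and how often leading clones of other V genes form such pairs was not tested.

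Most CDR3s of both genes were seen in a single mouse, and this was not compared with other V genes. Of 6759 Trbv12-1 CDR3 amino acid sequences, 91.3% were seen in a single sample and 77 in at least 4. Of 5862 Trbv12-2 sequences, 90.4% were seen in a single sample and 59 in at least 4. The most shared was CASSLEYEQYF with Trbv12-1 and J2-7, which was found in all 16 samples of every group, in 13 nucleotide forms with 644 templates. Its share of productive templates ran from 0.00867% in ANT008 replicate 3 over a median of 0.0730% to 0.478% in combination replicate 4, where its most frequent form, with 132 templates, was the leading Trbv12-1 clone. With Trbv12-2 the same CDR3 was found in 9 samples with 16 templates in all. The most shared Trbv12-2 CDR3 was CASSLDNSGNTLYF with J1-3, in 11 samples with 17 templates, and its share was at most 0.0139% in any sample, so that it was shared at low level. The form of each found in most samples had 1 added nucleotide.
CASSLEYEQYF, Trbv12-1, in 9 samples: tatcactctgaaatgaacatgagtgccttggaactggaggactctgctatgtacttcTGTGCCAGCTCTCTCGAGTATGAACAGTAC
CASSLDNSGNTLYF, Trbv12-2, in 9 samples: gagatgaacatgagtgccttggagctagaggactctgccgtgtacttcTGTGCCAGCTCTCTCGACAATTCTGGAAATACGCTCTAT
The next most shared CDR3s of at most 14 residues were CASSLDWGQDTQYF and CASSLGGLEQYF for Trbv12-1, each in 9 samples, and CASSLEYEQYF, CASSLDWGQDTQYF, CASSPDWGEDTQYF and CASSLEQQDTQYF for Trbv12-2, in 9, 9, 8 and 7 samples.

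The genes shared 1145 CDR3s, 16.9% of those of Trbv12-1 and 19.5% of those of Trbv12-2. In many cases the shared CDR3 had identical nucleotides in the same sample. This was so for 566 combinations of sample and CDR3 nucleotide sequence, and in 528 of them the rarer gene was at 1 template. Of the 32 leading clones, 28 had their CDR3 nucleotides also under the other gene in the same sample, at 100 templates against 11984, or 0.834%. The largest case was the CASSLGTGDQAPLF sequence in anti-PD-1 replicate 3, with 2555 templates under Trbv12-2 and 16 under Trbv12-1. Over all such combinations the rarer gene held 681 templates, 1.69% of the productive templates of both genes. Whether these are separate rearrangements or reads given to the wrong gene was not tested, and rare CDR3s found with both genes are uncertain for that reason.

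Larger samples held a larger share of both genes. The share of unique productive rearrangements was compared with the log2 number of unique productive rearrangements over the 16 samples, which is also the denominator of the share. Pearson's r was 0.80 for Trbv12-1 (permutation p = 0.0001, adjusted p = 0.0007 over 7 relations) with Spearman's rho of 0.83 (permutation p = 0.00019). It was 0.79 for Trbv12-2 (permutation p = 0.00044, adjusted p = 0.00096) with rho of 0.78 (permutation p = 0.00055). Without ANT008 replicate 3 and anti-PD-1 replicate 4, the smallest samples, r was 0.71 and 0.78. These were the highest r of the 20 V genes, followed by 0.74 for Trbv1. At the other end the lowest r was -0.71, so a close relation to size was not particular to the pair. The relations of the other V genes were not tested.

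For the out-of-frame shares no relation to the size of the sample passed the test. For Trbv12-1, r was -0.16 (permutation p = 0.56, rho = -0.047, permutation p = 0.87). For Trbv12-2, r was 0.27 (permutation p = 0.30, rho = 0.34, permutation p = 0.19). Without the smallest samples, r was -0.068 and 0.27. With 16 samples and 43 to 250 out-of-frame Trbv12-2 rearrangements in each, a weak relation could be missed. The relations in and out of frame were not compared with each other. The productive shares were also taken after every sample was drawn down to 11317 templates, with size still counted at full depth. Their relation to size held, with r of 0.73 (permutation p = 0.00055, adjusted p = 0.00096, rho = 0.76, permutation p = 0.00098) and 0.65 (permutation p = 0.0070, adjusted p = 0.0099, rho = 0.74, permutation p = 0.0015). Without the smallest samples, r was 0.65 and 0.72. The unique productive rearrangements numbered 13238, 6640, 12336 and 12459 in combination replicates 1 to 4 and 3868, 8932, 10062 and 4074 in control replicates 1 to 4, so that size and group were not independent, and the part of size in the higher combination means was not tested. The shares of the genes also rose together (r = 0.74, permutation p = 0.00055, adjusted p = 0.00096, rho = 0.72, permutation p = 0.0023). Without ANT008 replicate 3 and combination replicate 4, r was 0.77. The V genes whose share was most like the summed share of the pair over the 16 samples were Trbv1 (Pearson's r = 0.66) and Trbv13-1 (r = 0.37).

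**Figure D3:**
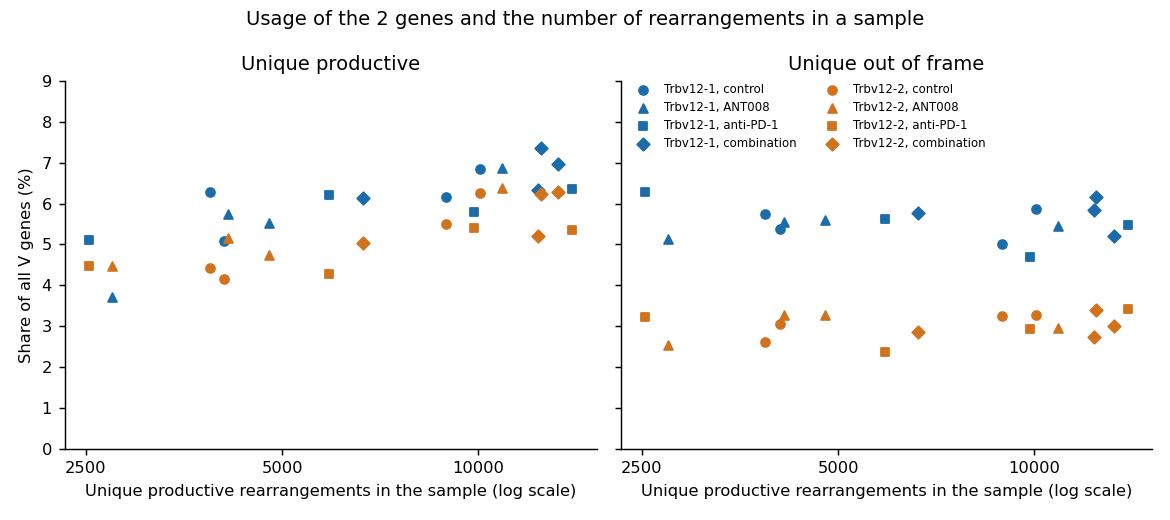
Share of Trbv12-1 and Trbv12-2 (y axis, percent) against the number of unique productive rearrangements in the sample (x axis, log scale), for productive (left) and out-of-frame (right) rearrangements, 1 point per mouse and gene, with marker shapes for the groups. Productive shares rise from left to right (r = 0.80 and 0.79) and out-of-frame shares show no clear trend (r = -0.16 and 0.27).

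Out-of-frame rearrangements served as the reference for how often the genes are rearranged before any receptor is made. They encode no receptor and are carried along by cells whose other chromosome has a productive rearrangement. If the molecule amplified was RNA, their shares also depend on transcript levels and need not equal that rate. Among out-of-frame rearrangements Trbv12-1 took 5.55% ± 0.42 and Trbv12-2 3.01% ± 0.32 (SD, n = 16). The group means ran from 5.43% to 5.74% and from 2.99% to 3.04%. Trbv12-2 was the scarcer gene out of frame in 16 of 16 samples, with a Trbv12-2 over Trbv12-1 ratio of 0.542 (log2 -0.88 ± 0.18 SD, exact sign-flip permutation, adjusted p = 6.1e-05 over 4 ratios). Among productive rearrangements the ratio was 0.865 (log2 -0.21 ± 0.18, below 0 in 15 of 16 samples, adjusted p = 0.00081). The change between out-of-frame and productive was in the same direction in 16 of 16 samples, at 0.67 ± 0.20 on the log2 scale (adjusted p = 6.1e-05). By productive templates the ratio was 0.691, with a wide spread (log2 -0.53 ± 0.79, adjusted p = 0.016), and Trbv12-2 was ahead in 4 of 16 samples.

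Set against its own out-of-frame share, Trbv12-2 was the most over-represented V gene among productive rearrangements. The log2 of the productive over the out-of-frame share averaged 0.78 ± 0.19 (SD), a 1.72-fold ratio, and was above 0 in 16 of 16 samples, from 0.44 in control replicate 4 to 1.11 in ANT008 replicate 2 (exact sign-flip permutation over 16 samples, adjusted p = 6.1e-05 over 24 V genes). Of these 24 V genes 37.5% passed on the high side. Trbv12-2 was followed by Trbv29 at 0.55, and it lay above Trbv29 in 14 of 16 samples by 0.23 ± 0.20. For Trbv12-1 the mean was 0.11 ± 0.24, above 0 in 12 of 16 samples, and did not pass (adjusted p = 0.12). It lay between Trbv1 at 0.11 and Trbv5 at 0.094, with differences of -0.0054 ± 0.25 and 0.014 ± 0.29. These neighbors were picked by the order of the same means. A test on the same ratios could not weigh that order, and no p-value is given for the differences.

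The lowest Trbv12-1 ratios, -0.47 and -0.30, were those of ANT008 replicate 3 and anti-PD-1 replicate 4, the shallowest samples. Without either of them the mean was 0.15 (adjusted p = 0.017) or 0.13 (adjusted p = 0.045), and with all samples drawn to the same depth it was -0.011 (adjusted p = 0.85), so that no direction was settled for Trbv12-1. For Trbv12-2 the mean at the same depth was 0.66 (adjusted p = 6.1e-05). It was 0.43 without the rearrangements seen as 1 template (adjusted p = 0.0055), and 0.041 by templates (adjusted p = 0.90), where large clones decide.

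No comparison of these ratios with control passed the test. For Trbv12-2 the group means were 0.72 ± 0.20 in control, 0.77 ± 0.25 with ANT008, 0.71 ± 0.19 with anti-PD-1 and 0.92 ± 0.10 in the combination group, whose difference from control was 0.20 (SE 0.11, exact permutation p = 0.11, adjusted p = 0.69 over 6 comparisons). The other 5 comparisons gave exact permutation p-values up to 0.97.

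**Figure D4:**
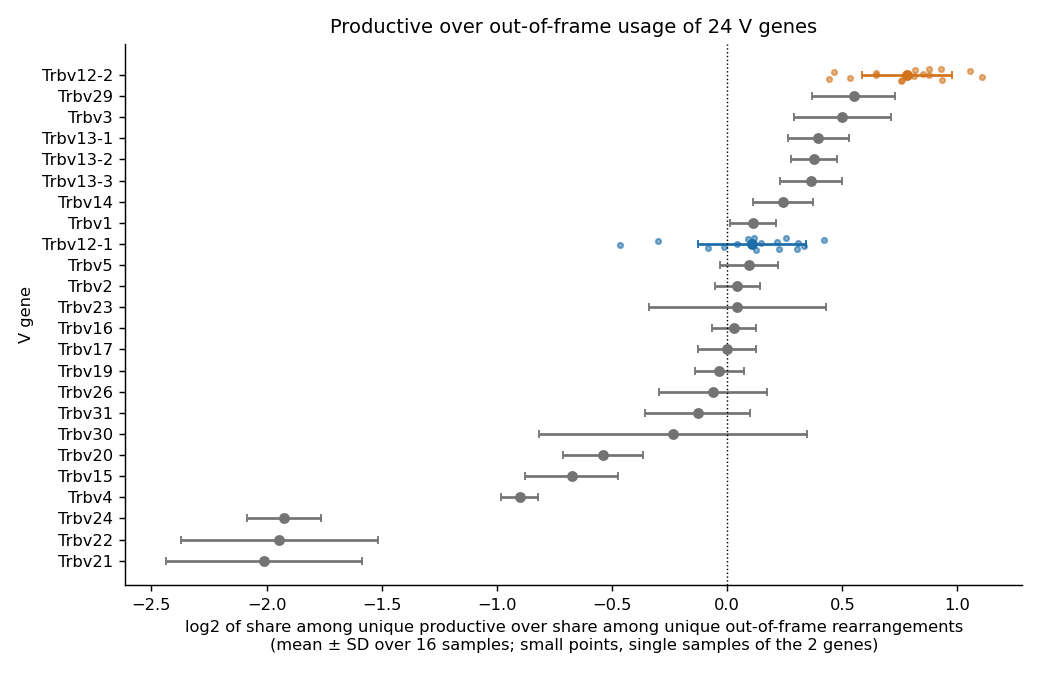
Log2 of the share among unique productive over the share among unique out-of-frame rearrangements (x axis) for 24 V genes (y axis, in order of the mean), as mean and SD over 16 samples. Small points are the single samples of Trbv12-2 (orange) and Trbv12-1 (blue). Trbv12-2 is at the top with a mean of 0.78, and Trbv12-1 is ninth with 0.11.

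By templates, the highest out-of-frame shares rested largely on single clones as well. Trbv12-1 took 23.1% of out-of-frame templates in control replicate 1 and 17.2% in combination replicate 2, where 1 rearrangement held 53.2% and 67.7% of the gene's out-of-frame templates. Trbv12-2 took 10.2% in ANT008 replicate 1, 87.2% of it in 1 rearrangement. In the other samples the shares were at most 9.59% and 4.45%. There the largest rearrangement held from 4.26% (anti-PD-1 replicate 1) to 62.4% (anti-PD-1 replicate 2) of Trbv12-1 out-of-frame templates. For Trbv12-2 it held from 5.01% (combination replicate 4) to 57.2% (anti-PD-1 replicate 3). A dominant rearrangement was thus also found in samples without a high share. As single clones weighed so heavily in some samples, unique rearrangements, not templates, served as the reference.

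Counting each unique rearrangement once, both genes were joined less often to J1-1 than the other V genes were. Weighted by templates, the difference turned to 1.85 points for Trbv12-1 and was -0.699 for Trbv12-2 (adjusted p = 0.87 and 0.48). The J segment is the 3′ part of the V(D)J join and encodes the end of CDR3. J1-1 was joined to 5.97% ± 1.19 of unique productive Trbv12-1 rearrangements (lowest 3.68%, median 5.80%, highest 7.84%) and to 9.07% ± 0.26 of those of all V genes outside the pair (8.61% to 9.56%). It was joined to 6.93% ± 1.22 of those of Trbv12-2 (lowest 4.14%, median 7.16%, highest 8.43%). Both genes were below the other V genes in 16 of 16 samples and the ranges did not overlap, with differences of -3.10 ± 1.21 and -2.14 ± 1.16 points (exact sign-flip permutation, adjusted p = 0.00024 for both over 24 gene pairs). Over 240 pairs of V and J genes tested in the same way, 33.3% passed in either direction. For J1-1, Trbv12-1 was the lowest and Trbv12-2 the third lowest of 20 V genes.

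Trbv12-2 departed from the other V genes at 8 of 12 J genes and Trbv12-1 at 3 of 12. Adjusted with all 240 pairs, of which 33.3% passed, the counts were 7 and 3, and 1 V gene had more than Trbv12-2. Trbv12-2 was higher for J2-2 in 16 of 16 samples, at 8.42% ± 1.75 (5.58% to 11.5%) against 5.41% ± 0.37 (adjusted p = 0.00024). It was higher for J2-5, at 14.1% ± 3.5 (9.22% to 21.2%) against 11.1% ± 0.6, in 15 of 16 samples (adjusted p = 0.0025). Weighted by templates, the J2-2 difference turned to -0.79 points. By unique rearrangements Trbv12-2 was lower for J2-1 at -2.11 points (adjusted p = 0.0029), J1-2 at -0.99 (adjusted p = 0.0088) and J2-3 at -1.40 (adjusted p = 0.022). The calls for J1-4 at -0.79 points and J2-4 at 1.17 points (both adjusted p = 0.041) were lost in 9 and 12 of the 16 fits that left out a sample. Trbv12-1 was lower for J1-5 at -1.18 points (adjusted p = 0.0025) and higher for J2-4 at 1.62 points (adjusted p = 0.0028), which was -0.10 weighted by templates. It passed at 3 J genes, and at 6 without ANT008 replicate 3.

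The genes also differed from each other, in 9 of 12 J genes (exact sign-flip permutation, adjusted over 12). Trbv12-1 was joined more to J2-1, at 14.7% against 10.9%, a Trbv12-2 minus Trbv12-1 difference of -3.80 ± 3.54 points with Trbv12-2 lower in 14 of 16 samples (adjusted p = 0.0074). Trbv12-2 was joined more to J2-5, by 3.10 ± 3.73 points (adjusted p = 0.0097), to J2-2, by 2.33 ± 2.56 points (adjusted p = 0.0090), and to J1-3, by 1.57 ± 1.34 points (adjusted p = 0.0055). J2-7, the most used J gene, took 21.5% ± 2.5 and 20.7% ± 3.9 and did not pass against the other V genes (21.1% ± 1.1). J2 segments as a whole took 71.2% ± 3.3 and 70.2% ± 3.1 of the members and 67.0% ± 0.8 of the others.

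Among out-of-frame rearrangements 1 of 12 J genes passed for each gene. J1-1 with Trbv12-2 was again lower, with a difference of -2.44 ± 2.35 points and 14 of 16 samples below (adjusted p = 0.025). J2-1 with Trbv12-1 was higher by 2.77 ± 2.79 points in 14 of 16 samples (adjusted p = 0.026). J1-1 with Trbv12-1 was not, at 7.59% ± 2.35 against 7.94% ± 0.63 (adjusted p = 0.77). The difference between the frames was not tested, and out-of-frame rearrangements were fewer, 43 to 250 per sample for Trbv12-2 and 87 to 414 for Trbv12-1.

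**Figure D5:**
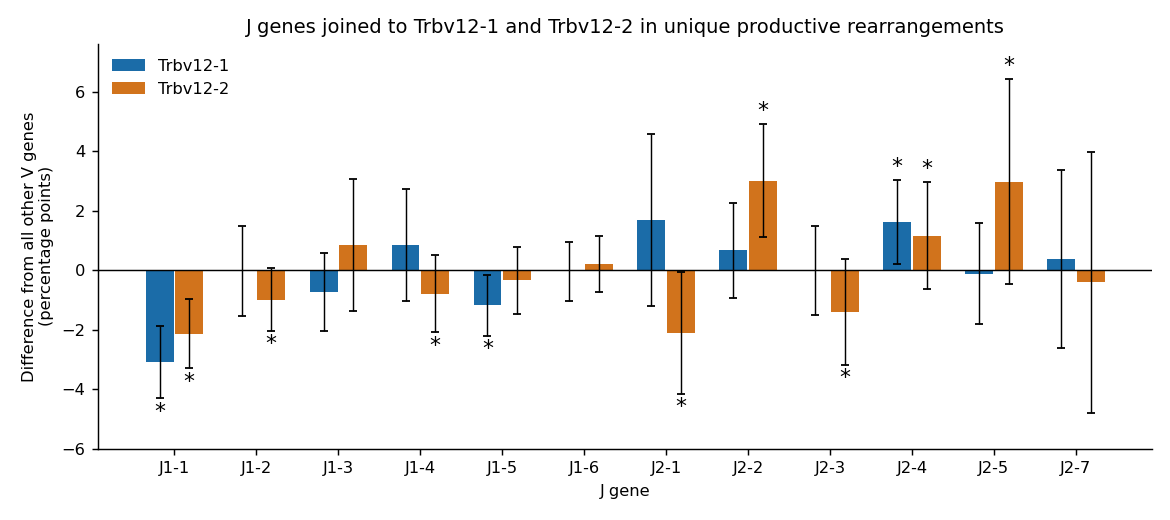
Difference in J gene share between Trbv12-1 (blue) or Trbv12-2 (orange) and all other V genes (y axis, percentage points) for the 12 J genes (x axis), in unique productive rearrangements. Bars are means and whiskers SDs over 16 samples, and asterisks mark adjusted p under 0.05. J1-1 is low for both genes (-3.10 and -2.14 points), and J2-2 and J2-5 are high for Trbv12-2 (3.01 and 2.97 points).

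The junctions of both genes kept more of the V segment. During joining, bases are removed from the ends of the segments and others are added without a template. Trbv12-1 lost 1.81 ± 0.14 V bases (SD, n = 16, 1.60 to 2.11) and Trbv12-2 lost 1.59 ± 0.10 (1.44 to 1.77), against 2.76 ± 0.04 (2.70 to 2.83) for the other V genes, with no overlap. The V segment was untrimmed in 35.9% ± 2.4 of Trbv12-1 and 40.0% ± 2.9 of Trbv12-2 rearrangements and in 21.4% ± 0.8 of the others. Added nucleotides were 3.90 ± 0.15 and 3.64 ± 0.18 against 3.53 ± 0.07, and CDR3 was 14.1 residues long for both genes against 14.0.

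The junction measures passed for both genes, with differences in V bases removed of -0.95 ± 0.14 and -1.17 ± 0.10 (adjusted p = 6.1e-05 for both), in added nucleotides of 0.37 ± 0.12 (adjusted p = 6.1e-05) and 0.11 ± 0.17 (adjusted p = 0.010), and in CDR3 length of 0.14 ± 0.08 (adjusted p = 0.00023) and 0.12 ± 0.10 residues (adjusted p = 0.0011), all by exact sign-flip permutation over 16 samples. Such tests passed for 91.7% of V genes and measures, so that a pass by itself says little about these genes. By size, the differences in V bases removed were the fourth and second most negative of 20 V genes, while added nucleotides were number 18 from the lowest for Trbv12-1 and number 11 for Trbv12-2, and CDR3 length was number 14 and 13. The differences in CDR3 length, and in added nucleotides, were no longer past the threshold without the rearrangements seen as 1 template (0.041 and 0.027 residues, 0.14 and 0.11 nucleotides). Trbv12-2 had fewer added nucleotides than Trbv12-1 in 16 of 16 samples (difference -0.26 ± 0.14) and fewer V bases removed in 16 of 16 (difference -0.22 ± 0.14, exact sign-flip permutation, adjusted p = 4.6e-05 for both).

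Of 18 comparisons of these junction measures with control, 1 had an unadjusted p under 0.05 and 0 passed after adjustment (lowest adjusted p = 0.31). Trbv12-1 rearrangements held 4.24, 4.03, 3.93 and 3.98 added nucleotides in control replicates 1 to 4 and 3.90, 3.75, 3.88 and 3.75 in combination replicates 1 to 4. The groups did not overlap, with a difference of -0.22 (SE 0.080, exact permutation p = 0.0286, adjusted p = 0.31). Among the 20 V genes 5% had every combination sample below every control sample for this measure, which was Trbv12-1, and the mean was lower in the combination group for 15 of 20.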

How the data were processed

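Per the labels, T cells were selected magnetically from tumor suspensions and RNA was extracted. The study's text also names DNA, so the amplified molecule is unsettled. The TCRβ survey was run as immunoSEQ by Adaptive Biotechnologies. The deposited counts were templates per unique 87-base rearrangement, as estimated by the service, with the V and J gene, reading frame, V bases removed and nucleotides added at the V-D and D-J joins, 1 table per sample. Replicate numbers are those of the labels, and 13 of 16 differ from a number inside the deposited tables, whose treatments match. Total templates were 11317 to 99411 per sample, and intervals cover counting error only. No genome build is given in the sources used here, so no coordinates are printed. All 33 V gene names with productive rearrangements matched a symbol of the GRCm38.p6 RefSeq table, which was used for names and gene order only.

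V gene counts were tested with edgeR 4.0.16 (quasi-likelihood, 33 V genes and all 16 samples in 1 fit, with each library size set to the total of productive templates or of unique productive rearrangements), with DESeq2 1.42.0 as an alternative, in R 4.3.3. Within-sample measures were tested with exact two-sided sign-flip permutation over 16 samples (65536 arrangements), and group differences with exact permutation over 70 arrangements of 8 samples, in Python 3.11.15 with numpy 2.4.6. Log ratios had 0.5 added to each count, and ratios over out-of-frame usage were tested for V genes with a mean of at least 10 rearrangements per sample in each frame. Adjusted p-values are Benjamini-Hochberg, with a threshold of 0.05. Scripts were tested on simulated data. The members, lists and tests were chosen with earlier results of these data known. Besides the members, V genes were named if closest to the pair in share over samples or next to a member in productive over out-of-frame ratio. CDR3s were named if leading in a sample or among the 5 found in most samples, and those over 14 residues are left unnamed. Drawing samples to equal depth (20 draws), the direct comparison of J genes between members, and out-of-frame J usage were added after seeing the data. Also outside the list of planned tests were those of template share over unique share, of share against sample size, and of junctions between members.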

Additional observations from a re-analysis of the deposited data

Results flagged for a closer look

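Of 56 sets of 4 samples examined for a sample far from the others of its group, 6 held one. Chance gives about 1 in 20 for a single set, but the sets were overlapping measures of the same 16 samples. Whether 6 of 56 exceeds chance was therefore not tested. The Trbv12-1 share of productive templates was 9.20% in control replicate 3, against 2.13% to 2.48% in the other control samples. The Trbv12-1 share of out-of-frame templates was 17.2% in combination replicate 2, against 3.73% to 5.23% in the other combination samples. In the same sample the largest Trbv12-1 clone held 40.6% of the gene's templates, against 3.48% to 8.01% in the others. The largest Trbv12-2 clone held 48.5% of the gene's templates in anti-PD-1 replicate 3, against 6.78% to 12.8% in the others. The share of Trbv12-1 rearrangements seen as 1 template was 87.5% in control replicate 2, the highest of its group, and 55.8% in anti-PD-1 replicate 4, the lowest of its group and the sample with the fewest templates.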

How the results depend on the processing

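No alternative gave a significant change of either gene with treatment, but the sign of the template fold changes moved with the setting. On the log2 scale, Trbv12-1 with ANT008 was 0.022 without each V gene's largest clone, and in the combination group -0.092 with DESeq2, -0.072 with TMM factors and -0.21 without rearrangements of 1 template. Trbv12-2 in the combination group was 0.19 without the largest clones, and with ANT008 -0.019 by unique rearrangements with TMM. Summing the genes gave -0.015 with ANT008 and 0.016 in the combination by templates, and -0.058 with ANT008 by unique rearrangements. Trbv12-1 with anti-PD-1 by unique rearrangements was 0.13 without rearrangements of 1 template. By templates in the combination, 0 V genes were called with a filter on low counts or without rearrangements of 1 template and 2 with only the 8 samples compared, and 0 for the interaction without the largest clones.

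Leaving out 1 sample at a time moved the template changes with ANT008 from -0.46 to 0.62 for Trbv12-1 and from -0.15 to 0.72 for Trbv12-2, those with anti-PD-1 from 0.057 to 1.12 and from -0.22 to 0.93, those in the combination from -0.16 to 0.84 and from -0.28 to 0.48, and the interactions from -0.90 to 0.18 and from -1.16 to -0.013. Without rearrangements of 1 template the Trbv12-2 interaction was -1.13. By unique rearrangements, Trbv12-2 with ANT008 moved from -0.11 to 0.15, and the genes with anti-PD-1 from -0.12 to 0.019 and from -0.15 to 0.056. V genes called by templates numbered 0 to 2 with ANT008, 0 to 2 with anti-PD-1, 0 to 3 in the combination and 1 to 3 for the interaction, and 0 to 1 in the combination by unique rearrangements. The Trbv12-1 productive over out-of-frame mean moved from 0.086 to 0.15, its J genes passing from 3 to 6, and comparisons with control at p under 0.05 from 0 to 1 each for clone size, junction and ratio.

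The labels number replicates 1 to 4 in every group, but same-numbered samples did not deviate together (mean correlation 0.0385, from -0.441 to 0.519), so the numbers were not taken as pairs. With the replicate number as a block, Trbv12-2 by templates in the combination was 0.14, and 1 V gene was called by unique rearrangements in the combination.

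Weighting by templates removed most calls within samples: the log2 productive over out-of-frame ratio became -0.62 and 0.041, J genes passing fell to 0 and 1, the differences in CDR3 length were 0.048 and 0.13 residues (adjusted p = 0.58 and 0.34) and in Trbv12-2 added nucleotides 0.11 (adjusted p = 0.49), and 0 group comparisons of the junction had p under 0.05. J1-1 with Trbv12-1 became 1.85 points, J2-4 with Trbv12-1 -0.10 and J2-2 with Trbv12-2 -0.79. Without rearrangements of 1 template, the Trbv12-1 ratio was -0.15, the Trbv12-2 over Trbv12-1 ratio -0.19 (adjusted p = 0.11), and CDR3 length and added nucleotides differed by 0.041 and 0.14 for Trbv12-1 and 0.027 and 0.11 for Trbv12-2, none past the threshold. At equal depth, chosen after seeing the data, the Trbv12-1 ratio was -0.011. With CDR3 amino acid sequences counted once, 5 J genes passed for Trbv12-1. The cause was not tested in any of these. Depth limits the shallowest samples most, which held 102 and 113 unique productive members of a gene.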
